A study of Mus musculus with 6 samples.

Results

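The genes described here are 10 members of the canonical Wnt pathway: targets of beta-catenin (Axin2, Nkd1, Rnf43, Znrf3, Lgr5, Sp5, Ccnd1 and Cdx1) and the Tcf factors Tcf7 and Tcf7l1. They were read through every probe set whose platform annotation named 1 gene, that gene being on this list, which gave 18 probe sets for 9 genes among 45037 probe sets. No probe set was named as Tcf7 in the annotation used here, so Tcf7 was not analysed here. The arrays compared 3 wild type with 3 Setd2 knockout cultures of mouse embryonic stem (ES) cells of strain 129SV/C57BL/6, untreated, labelled as biological repeats 1 to 3 of each genotype. Both genotypes were grown on feeder cells and largely freed of them by settling on gelatin and by 1 feeder-free passage. Setd2 encodes the enzyme that trimethylates histone H3 at lysine 36 on transcribed genes. The labels give neither the deleted part of the gene nor the number of clones behind each genotype.

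In the canonical pathway a Wnt ligand binds a Frizzled receptor and an Lrp coreceptor, which stops the destruction complex of Apc, Axin and Gsk3 from marking beta-catenin for degradation. Beta-catenin then binds Tcf and Lef factors on its target genes. Many of these targets are inhibitors of the pathway and so form a negative feedback loop. In mouse ES cells Wnt signals favour self-renewal, in large part by lifting the repression that Tcf7l1 places on pluripotency genes.

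Neither Tcf7l1 nor any of the Wnt targets that could be tested differed between the genotypes past the threshold. Rnf43, Lgr5 and Sp5 could not be tested. A total of 12 probe sets of 6 genes (Axin2, Nkd1, Znrf3, Ccnd1, Cdx1 and Tcf7l1) were bright enough to be tested, and 0 of them passed an adjusted p of 0.05 in limma, a linear model with a shared variance estimate, where 0.648% of all 27022 tested probe sets did. At an unadjusted p under 0.05 the count was also 0 of 12, against 11.7% of all tested probe sets. Their median difference, knockout minus wild type, was 0.13 on the log2 scale, against 0.0089 over all tested probe sets. The median size of the difference, without its sign, was 0.20 for the members and 0.18 for all. In a fit with the array number as a block, which compares the genotypes within each number, 0 of 12 passed again, against 7.88% of all tested probe sets. Given the spread between arrays, a difference of at least 0.86 to 3.26 log2 units, depending on the probe set, would have been needed to pass.

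The identity of the cells and of the knockout was checked first. The Setd2 probe set averaged 10.30 ± 0.01 in the wild type group and 9.49 ± 0.12 in the knockout group (log2 signal ± SD, n = 3 each; limma adjusted p = 0.0272), and it checks the genotype only if it lies in the deleted part. This call was lost without any 1 array other than knockout replicate 1, with adjusted p from 0.0704 to 0.214, while the difference, -0.82 with all arrays, ran from -0.87 to -0.81 in those fits. It was also lost without limma's intensity trend (adjusted p = 0.0916). The 10 ES cell markers had a mean level from 13.12 to 13.16 on wild type and from 12.91 to 12.97 on knockout arrays, with 1 of 10 lower past the threshold. This was Zfp42 (Rex1), a marker of naive ES cells on chromosome 8, which averaged 13.27 ± 0.13 in the wild type group and 11.28 ± 0.11 in the knockout group (SD, n = 3 each), a signal 3.98-fold lower (limma adjusted p = 8.37e-05). The other ES cell markers differed by -0.11 (Tdgf1) to 0.08 (Pou5f1), and the median difference over all 10 was -0.03. Eif2s3y, a gene of the Y chromosome, averaged 4.92 ± 0.40 in the wild type group and 11.30 ± 0.23 in the knockout group, so genotype and cell line cannot be told apart in any comparison below. The arrays also differed by number: the first principal component, 38% of the variance, parted the arrays numbered 1 from the others in both genotypes.

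**Figure D1:**
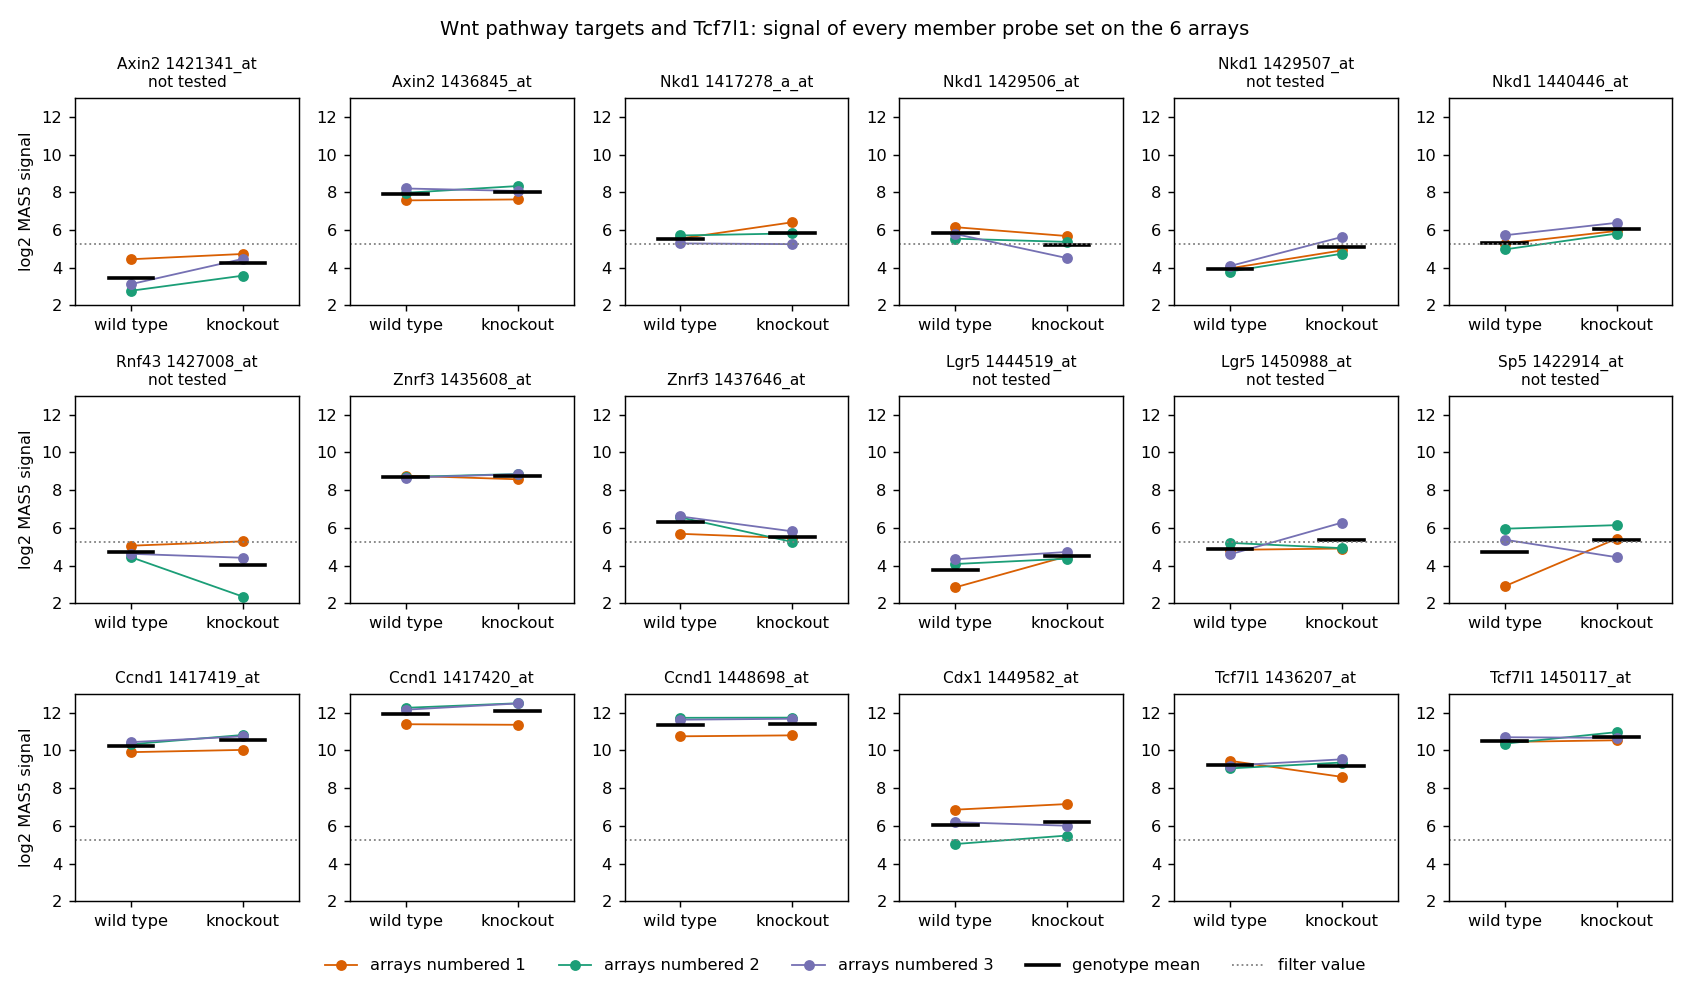
Log2 MAS5 signal (y axis) of all 18 member probe sets in wild type and knockout cells; each line joins the arrays of one number, black bars are genotype means and the dotted line is the filter value of 5.27. The Ccnd1 probe sets are lowest and the Cdx1 probe set is highest on the arrays numbered 1, in both genotypes.

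Axin2 is the scaffold of the destruction complex that beta-catenin itself induces, and it is a widely used readout of canonical Wnt signalling. Its promoter window and that of Sp5 are shown because these genes are general Wnt targets, and because they contrast in the letters searched for. Windows run from 250 bases before to 50 bases after the gene start, from RefSeq on build GRCm38.p6, and capitals mark CTTTGAT, the core letters bound by Tcf factors. The Axin2 window lies at chr11:108920099-108920398 and the Sp5 window at chr2:70474673-70474972, both on the plus strand.
Axin2: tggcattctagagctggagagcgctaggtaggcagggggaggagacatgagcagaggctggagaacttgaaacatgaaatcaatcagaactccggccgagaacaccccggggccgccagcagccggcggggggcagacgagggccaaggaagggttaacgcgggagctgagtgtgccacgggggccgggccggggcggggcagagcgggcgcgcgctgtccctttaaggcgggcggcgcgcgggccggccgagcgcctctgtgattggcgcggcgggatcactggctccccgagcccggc
Sp5: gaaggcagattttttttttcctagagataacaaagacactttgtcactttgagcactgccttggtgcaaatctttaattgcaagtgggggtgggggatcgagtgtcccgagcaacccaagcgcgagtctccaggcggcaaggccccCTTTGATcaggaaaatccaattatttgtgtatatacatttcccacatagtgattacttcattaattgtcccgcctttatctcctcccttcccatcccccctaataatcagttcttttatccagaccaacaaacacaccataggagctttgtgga
In the Sp5 window the match begins 104 bases before the gene start. Promoter windows were found for 6 of the 10 genes (8 windows, Tcf7 and Rnf43 having 2 each). On either strand CTTTGAT occurred in 1 of these 8 windows, the one of Sp5, and in 3.73% of all 32851 windows. The related letters CTTTGAA occurred in 0 of the 8 and in 5.14% of all windows. A match describes letters and is no evidence of binding.

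Axin2 (1436845_at, chromosome 11) read 7.57, 7.97 and 8.20 on wild type arrays 1, 2 and 3 and 7.62, 8.33 and 8.07 on knockout arrays 1, 2 and 3. The groups overlapped, and in both genotypes array 1 was the lowest. The difference was 0.09 ± 0.24 (SE) on the log2 scale, with a 95% interval of -0.46 to 0.64 (limma adjusted p = 0.934). That interval leaves room for a signal up to 1.38-fold lower or 1.56-fold higher in knockout cells. With the block it narrowed to -0.25 to 0.43. The second Axin2 probe set (1421341_at) had means of 3.45 (wild type) and 4.26 (knockout), under the filter value, and was not tested.

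Znrf3 and Rnf43 encode related membrane ubiquitin ligases that remove Frizzled receptors from the cell surface. The brighter Znrf3 probe set (1435608_at, chromosome 11) read 8.77, 8.70 and 8.67 in wild type and 8.58, 8.86 and 8.85 in knockout cells. Its difference of 0.05 ± 0.15 (SE) had an interval of -0.29 to 0.38, and this probe set needed the smallest difference of all members to pass, 0.86. The dimmer one (1437646_at) read 5.69, 6.56 and 6.61 in wild type and 5.46, 5.26 and 5.82 in knockout cells, a difference of -0.77 ± 0.34 (SE) with limma adjusted p = 0.437, the lowest among the members. The probe sets of Znrf3 thus disagreed in sign, and the groups overlapped at both of them. Rnf43 (1427008_at, chromosome 11) was not tested. It read 5.06, 4.45 and 4.63 in wild type and 5.29, 2.36 and 4.42 in knockout cells, where knockout array 2 stood far below the others.

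Nkd1 encodes an inhibitor that binds Dishevelled, and it is induced by Wnt signals in many tissues. Its 4 probe sets gave no common direction. The probe set 1440446_at read 5.28, 4.97 and 5.72 in wild type and 5.95, 5.81 and 6.38 in knockout cells, a difference of 0.72 ± 0.33 (SE; limma adjusted p = 0.448 without and 0.230 with the replicate block). Here the lowest knockout array lay above the highest wild type array, which made it the 1 member probe set of 12 tested whose groups did not overlap (8.33%, against 18.1% of all tested probe sets). Within the arrays numbered 1, 2 and 3 its difference was 0.67, 0.84 and 0.65. By contrast 1429506_at differed by -0.64 ± 0.39 (SE) and 1417278_a_at by 0.31 ± 0.36 (SE), with overlapping groups. The untested 1429507_at read 3.97, 3.80 and 4.09 in wild type and 4.92, 4.74 and 5.63 in knockout cells, all knockout arrays higher; of all probe sets under the filter 11.2% had groups that did not overlap. Nkd1 lies on chromosome 8, whose 709 tested genes had a median difference of -0.34, against 0.01 for the other chromosomes without Y. The part of the chromosome in the Nkd1 values was not tested.

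Lgr5, a receptor for R-spondins and a Wnt target in adult stem cells, and Sp5, a zinc finger factor that beta-catenin induces directly, were too dim to be tested. For Lgr5 (chromosome 10) the probe set 1444519_at read 2.85, 4.09 and 4.34 in wild type and 4.50, 4.37 and 4.73 in knockout cells. The groups did not overlap there, with knockout higher, as 11.2% of all probe sets under the filter did not overlap in either direction. At 1450988_at (means 4.89 and 5.37) the groups overlapped. Sp5 (1422914_at) read 2.91, 5.96 and 5.38 in wild type and 5.43, 6.15 and 4.45 in knockout cells. Its SD of 1.62 in wild type exceeded the mean difference of 0.59, and array 1 was the lowest in wild type but not in knockout cells.

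Ccnd1 encodes cyclin D1, which drives the passage from G1 to S phase and is a Wnt target in several tissues. Its 3 probe sets on chromosome 7 shared 1 pattern, in which both arrays numbered 1 were lower than the other 4. The probe set 1417419_at read 9.91, 10.33 and 10.44 in wild type and 10.03, 10.82 and 10.75 in knockout cells, a difference of 0.30 ± 0.23 (SE) with limma adjusted p = 0.692. At 1417420_at the values were 11.39, 12.26 and 12.16 in wild type and 11.36, 12.50 and 12.49 in knockout cells, a difference of 0.17 ± 0.33 (SE). At 1448698_at they were 10.75, 11.73 and 11.63 against 10.80, 11.74 and 11.68, and the difference was 0.04 ± 0.31 (SE). The spread by array number was therefore larger than any genotype difference.

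With the array number as a block the SE of these Ccnd1 differences was 0.09, 0.08 and 0.07, and limma adjusted p was 0.0816, 0.232 and 0.802. When both arrays numbered 1 were left out, which left 2 arrays a genotype, 1417419_at and 1417420_at were higher in knockout cells, by 0.40 (limma adjusted p = 0.0279) and 0.28 (0.0377), while 1448698_at differed by 0.03 (0.860). In that fit 7.52% of all probe sets were called. The 2 of 12 member probe sets (16.7%) are readings of 1 gene, so their share cannot be read as an excess among the members. Leaving out single arrays called 0 of the 12. Markers of feeder fibroblasts had a mean level over 21 tested genes of 8.02, 8.64 and 9.07 on wild type arrays and of 7.91, 9.03 and 8.91 on knockout arrays, likewise lowest on the arrays numbered 1. None of these markers was at 0 on any array. Without the block 0 of 21 passed the threshold, against 0.736% of all genes tested. With it 2 were higher in knockout cells (Fn1 and Pdgfrb, limma adjusted p = 0.00327 and 0.043), where 4.13% of all genes were higher and 9.87% called. Only Fn1 was higher without the arrays numbered 1 (limma adjusted p = 0.0148), where 9.31% of all genes were called. Among knockout arrays Fn1 and Pdgfrb were highest on array 1, unlike the mean level. The median difference of the 21 markers was -0.07. Their part in the Ccnd1 values was not tested, and a change in the number of cells of a type cannot be told apart from a change in RNA per cell.

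Cdx1, a homeobox gene of the posterior embryo that responds to Wnt, went the other way by array number. Its probe set (1449582_at, chromosome 18) read 6.86, 5.04 and 6.20 in wild type and 7.16, 5.49 and 6.01 in knockout cells, so that array 1 was the highest in both genotypes. The difference of 0.18 ± 0.55 (SE) had an interval of -1.09 to 1.45 (limma adjusted p = 0.942). A 9.57-fold difference would have been needed to pass, the largest among the members.

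**Figure D2:**
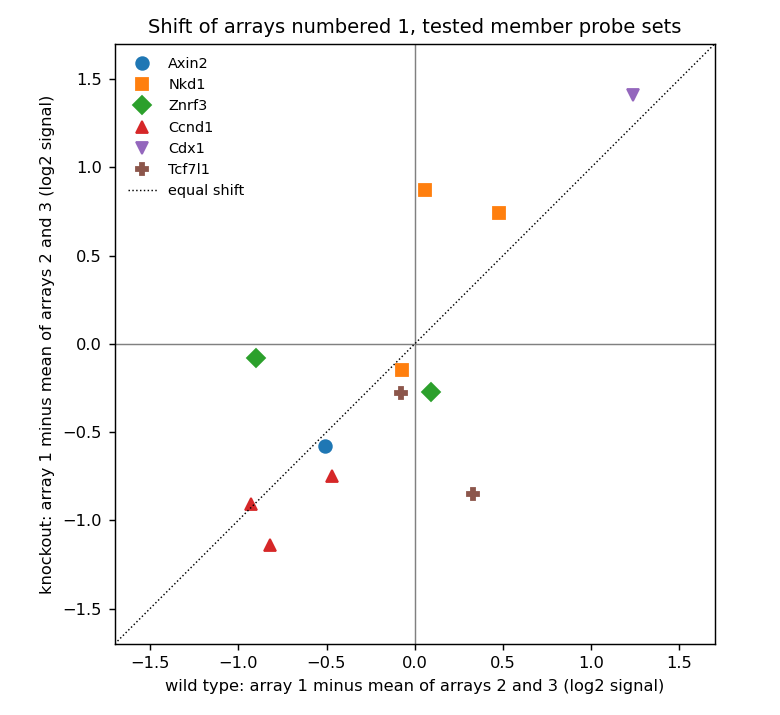
Shift of the array numbered 1 against the mean of arrays 2 and 3 (log2 signal) in wild type (x axis) and knockout cells (y axis) for the 12 tested member probe sets, with the dotted line where both are equal. Ccnd1 and Axin2 lie at the lower left and Cdx1 at the upper right.

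The shift of array 1 against the mean of arrays 2 and 3 was -0.47, -0.82 and -0.93 for the Ccnd1 probe sets in wild type and -0.75, -1.14 and -0.91 in knockout cells. For Axin2 it was -0.51 and -0.58, and for Cdx1 1.24 and 1.41. Over all tested probe sets the median size of this shift was 0.27 in wild type and 0.31 in knockout cells, and shifts as large as that of Cdx1 occurred at 2.92% and 3.05% of them. At 10 of the 12 member probe sets (83.3%) the shift had the same sign in both genotypes, against 69.9% of all tested probe sets. The exceptions were Znrf3 1435608_at and Tcf7l1 1436207_at. The 12 probe sets are readings of 6 genes, so the share of 83.3% cannot be read as an excess among the members.

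Tcf7l1, formerly called Tcf3, is the Tcf factor of ES cells that represses pluripotency genes until beta-catenin displaces it. The brighter probe set (1450117_at, chromosome 6) read 10.45, 10.36 and 10.70 in wild type and 10.54, 10.97 and 10.67 in knockout cells. Its difference was 0.23 ± 0.15 (SE), with an interval of -0.12 to 0.57 (limma adjusted p = 0.641), so a signal up to 1.09-fold lower or 1.48-fold higher remained possible. The other probe set (1436207_at) read 9.45, 9.05 and 9.20 in wild type and 8.60, 9.36 and 9.53 in knockout cells. There knockout array 1 was the lowest of the 6 and knockout array 3 the highest, and the difference was -0.07 ± 0.25 (SE). Within the arrays of one number it ran from -0.86 for number 1 to 0.31 and 0.33 for numbers 2 and 3.

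**Figure D3:**
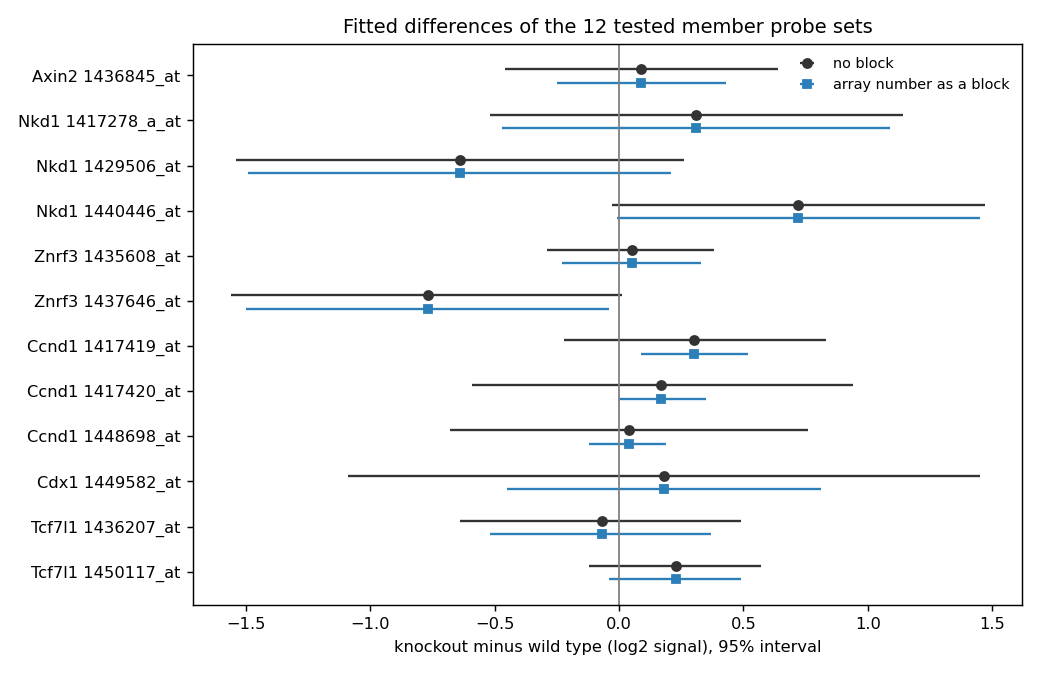
Knockout minus wild type difference in log2 signal (x axis) with its 95% interval for the 12 tested member probe sets, fitted without a block (circles) and with the array number as a block (squares). All intervals without the block include 0; with the block those of Ccnd1 1417419_at (0.09 to 0.52) and Znrf3 1437646_at (-1.50 to -0.04) do not, before adjustment.

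The block narrowed the intervals of Ccnd1 and Cdx1 most, and left those of Nkd1 and Znrf3 much as they were. The interval of Cdx1 became -0.45 to 0.81. For Znrf3 1437646_at it became -1.50 to -0.04, with limma adjusted p = 0.197.

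Genes whose profile over the 6 arrays was most like that of Axin2 (1436845_at) were sought by the root mean square distance between log2 profiles, each centred on its own mean. Among 12305 tested genes the nearest were Dclre1b at 0.074 log2 units, Cntfr at 0.078 and Nupl2 at 0.078. They were picked as the smallest of many distances over 6 arrays, so their nearness is no evidence of shared regulation. Among the members, Ccnd1 1417419_at was nearest at 0.14 and Cdx1 farthest at 0.95. Profiles were not scaled, so the distance also grows with the spread of a profile.

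The rest of the pathway was followed in 8 lists of 121 genes. Of these 119 had a probe set and 93 were tested, each at its brightest tested probe set. Tested were 10 of 19 Wnt ligand genes, 4 of 7 genes for Wnt release and agonists and 9 of 16 secreted antagonists. No probe set was named as Kremen2 or T in the annotation used here. The counts below are of tested genes. Without the block 0 of the 93 passed limma's threshold, against 0.736% of the 12915 genes tested, and 14 (15.1%) had an unadjusted p under 0.05, against 13.4% of all genes. With the replicate block 4 were higher (4.13% of all genes were) and 7 lower (5.75%), in all 11.8% of the 93 against 9.87% of all genes, and the 11 genes concerned are named here after their values were seen. Without both arrays numbered 1 the count was also 11 of 93, against 9.31% of all genes, and 9 genes were called in both fits. Over the 93 genes the median difference was 0.06 on the log2 scale, against -0.00056 for all genes.

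**Figure D4:**
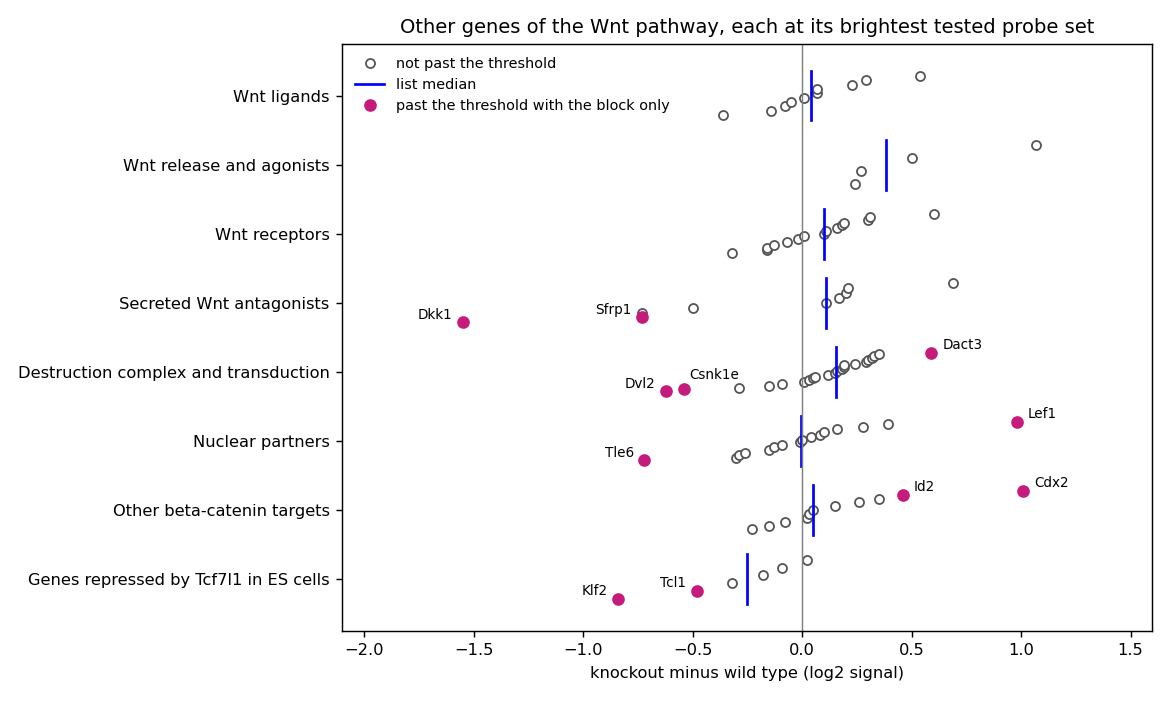
Knockout minus wild type difference in log2 signal (x axis) of 93 other Wnt pathway genes by list; filled points passed the threshold in the fit with the array number as a block only, open points did not, and blue bars are list medians. Dkk1 lies lowest at -1.55, and Lef1 and Cdx2 are the labelled genes farthest to the right. The open point of Rspo2, at 1.07, lies farther right and has no label.

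Among nuclear partners (16 tested, 1 higher and 1 lower with the block), Lef1, a Tcf family factor that beta-catenin also induces, varied most. Its probe set 1454734_at read 8.70, 11.02 and 10.61 in wild type and 9.42, 11.92 and 11.93 in knockout cells. The groups overlapped, but each knockout array lay above the wild type array of its number. The difference was 0.98 (limma adjusted p = 0.707 without and 0.000669 with the replicate block), while 1421299_a_at differed by 0.62 and missed the threshold with the block too (0.175). Tle6, of the Groucho family of corepressors, was 1.65-fold lower, with overlapping groups (limma adjusted p = 0.363 without and 0.0186 with the block). Tcf7l2, a Tcf factor known from the intestine, differed by -0.30 at 1429428_at (adjusted p = 0.569 in limma). Every knockout array was lower there, which held for 9.97% of all genes tested. At the other tested probe set, 1429427_s_at, it differed by -0.23 (limma adjusted p = 0.83) and the groups overlapped. The untested 1425229_a_at had means of 5.19 (wild type) and 3.28 (knockout), and 1426639_a_at of 2.66 and 1.67 with overlapping groups. The brightest partners, the corepressor genes Ctbp2 and Tle4, differed by -0.01 and -0.15.

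Of 9 secreted antagonists 0 rose and 2 fell with the block. Dkk1, which blocks the Lrp coreceptors and is a Wnt target, read 6.41, 7.42 and 7.04 in wild type and 5.48, 5.31 and 5.42 in knockout cells, a signal 2.93-fold lower (limma adjusted p = 0.0778 without and 0.0118 with the replicate block). All knockout values lay below all wild type values, which held for 9.97% of all genes tested. Sfrp1, which binds Wnt ligands, differed by -0.73 at 1428136_at (limma adjusted p = 0.235 without and 0.00247 with the block). Among its 5 tested probe sets the differences ran from -1.02 to -0.15, and it lies on chromosome 8. Sfrp4, a relative of Sfrp1, differed by -0.73 (limma adjusted p = 0.294 without and 0.0525 with the block). Without the arrays numbered 1 its difference was -1.09, past the threshold (0.00179). Markers of primitive endoderm, a cell type that can arise in ES cultures, were read at 8 tested genes. Their mean level ran from 7.72 to 7.96 on wild type and from 6.65 to 6.94 on knockout arrays. Of the 8, 1 was lower past the threshold, where 0.736% of all genes were called. With the block 5 were lower, against 5.75% of all genes. Gata4 and Lamb1 differed by 0.03 and 0.04. Sox17 and Sox7 had knockout means of 5.25 and 5.31, near the filter value. None of the markers was at 0. The part of these markers in the antagonist values was not tested.

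In the destruction complex and its transducers 1 of 22 genes rose and 2 fell with the block. Dvl2, a Dishevelled gene, read 9.19, 9.09 and 9.18 in wild type and 8.68, 8.67 and 8.27 in knockout cells. Its limma adjusted p was 0.167 without and 0.0168 with the block. Csnk1e, a casein kinase gene, was 1.45-fold lower (limma adjusted p = 0.444 without and 0.00391 with the block). Dact3, a Dishevelled antagonist gene, was 1.51-fold higher (limma adjusted p = 0.613 without and 0.0436 with the block). The groups of both genes overlapped. Untested probe sets of Dact3 differed in both directions. Ctnnb1, beta-catenin itself, differed by 0.12 at its brightest probe set (limma adjusted p = 0.568), and by 0.16 and 0.15 at the others. The next brightest gene, Tnks2, a tankyrase gene, differed by 0.01.

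Of 11 other beta-catenin targets 2 rose and 0 fell with the block. Cdx2, a homeobox gene of trophectoderm and posterior embryo, read 5.70, 6.68 and 5.67 in wild type and 7.04, 7.08 and 6.95 in knockout cells (limma adjusted p = 0.243 without and 0.0449 with the block). All knockout values lay above all wild type values at this probe set (1422075_at), which held for 9.26% of all genes tested. At the untested 1422074_at, with means of 3.55 (wild type) and 4.62 (knockout), the groups overlapped. Id2, an inhibitor of helix-loop-helix factors, was 1.38-fold higher, with overlapping groups (limma adjusted p = 0.654 without and 0.0388 with the block). Without the arrays numbered 1 both missed the threshold, at limma adjusted p of 0.179 and 0.352. The brightest targets, Mycn and Myc, differed by 0.05 and -0.23. Without the arrays numbered 1 Mycn was higher in knockout cells by 0.32 (limma adjusted p = 0.0282).

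Of 6 genes that Tcf7l1 is known to repress in ES cells 0 rose and 2 fell with the block, with a list median of -0.25. Klf2, a Kruppel-like factor of naive cells, was 1.79-fold lower (limma adjusted p = 0.118 without and 0.00800 with the block), and it lies on chromosome 8. All its knockout values lay below all its wild type values, which held for 9.97% of all genes tested. Tcl1, a coactivator of Akt, was 1.39-fold lower, with overlapping groups (limma adjusted p = 0.747 without and 0.0202 with the block). Esrrb, a main target of this repression, differed by -0.18 at its brightest probe set (limma adjusted p = 0.715), and by -0.89 and 0.13 at the others. Nanog and Nr0b1, the brightest of the list, differed by 0.02 and -0.09.

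The remaining lists gave 0 genes past the threshold in either fit. Among 10 Wnt ligand genes the brightest, Wnt6 and Wnt7b, differed by -0.05 and 0.01. Of 4 genes for Wnt release and its agonists, Porcn, which acylates Wnt proteins, differed by 0.27 and Wls, which carries them to the cell surface, by 0.50 at its brightest probe set and by 0.18 and -0.01 at the other tested ones. Rspo2, the dimmest of these 4, had the largest positive difference of the 93 genes, 1.07 (limma adjusted p = 0.306 without and 0.0798 with the block). All its knockout values lay above all its wild type values, which held for 9.26% of all genes tested. Among 15 receptor genes the brightest, Lgr4 and Fzd7, differed by 0.10 and 0.16.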

How the data were processed

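The authors deposited log2 values of MAS5 signals (1 signal per probe set). MAS5 is named in the submitters' processing notes, and its version is not given in the sources used here. On the linear scale the trimmed mean of each array lay between 497.0 and 497.3, and the array medians lay between 6.09 and 6.22, so the values were used as they are. Detection calls were not used here, and for arrays their number limits the precision. Symbols of the platform annotation were brought up to date through gene identifiers (RefSeq, GRCm38.p6). Probe sets with a mean below the 40th percentile (5.27) were not tested, which left 27022. Knockout was compared with wild type by limma 3.58.1 in R 4.3.3 (lmFit, eBayes with an intensity trend, two-sided, Benjamini-Hochberg over all probe sets, threshold 0.05), and the fit was tested on simulated data.

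Both genotypes share replicate numbers 1 to 3 in the titles. Deviations from the genotype means correlated at r = 0.50, 0.229 and 0.242 over probe sets, which are no independent replicates, for arrays sharing number 1, 2 and 3, all above the bound of 0.1 for treating numbers as pairs. Arrays 2 and 3 were not clearly paired, since wild type 2 correlated as well with knockout 3 (0.23). For the Wnt genes named, the blocked values stand beside the others where a call changes. Members and lists were chosen with earlier results of these data known. Named genes were all members, Setd2, the 2 brightest tested genes of a list with none past the threshold, Esrrb, Ctnnb1, Tcf7l2, Lef1 and the 3 genes nearest to Axin2. Genes past the threshold with the block, and Rspo2, were added afterwards. Alternatives were the block, no trend, other filters, quantile normalization, median centring, a floor, arrays left out, and chromosomes 8 and Y left out. A planned comparison of Tcf protein sequences was not made.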

Additional observations from a re-analysis of the deposited data

How the results depend on the processing

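The 12 tested member probe sets gave 172 values under the alternatives. Of these 170 stayed short of the threshold and 2 passed it (both Ccnd1, without both arrays numbered 1). No member passed in the main fit, so there was no call to reverse. With single arrays left out some differences changed sign, as for Axin2 1436845_at (-0.08 to 0.28), Ccnd1 1448698_at (-0.27 to 0.34) and Cdx1 (-0.31 to 0.60). Others kept it, as Nkd1 1440446_at (0.54 to 0.92). The count of member probe sets past the threshold was 0 in all other settings, single arrays left out included, and 2 without both arrays numbered 1. With the replicate block no member changed its call, while the count of the 93 other Wnt genes went from 0 to 11, and it was 11 without both arrays numbered 1 as well. Among these calls Cdx2 and Id2 passed with the block only, and Mycn and Sfrp4 without the arrays numbered 1 only. Under the other alternatives it was 0, the mean of a gene's probe sets included, and so it was without chromosomes 8 and Y, a setting added for this count after seeing the data. The count over all probe sets, 175, became 2129 with the replicate block, 2033 without both arrays numbered 1 and 57 without the intensity trend, and ran from 31 to 431 with single arrays left out. The cause of these changes was not tested. Sp5, Lgr5 and Rnf43 were too dim to be tested.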

Other observations

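Of 22 tested genes of the destruction complex and its transducers 17 had a positive and 5 a negative difference, with a median of 0.16 on the log2 scale and a range from -0.62 to 0.59. None passed the threshold without the block, and with it Dact3 was higher and Dvl2 and Csnk1e were lower. At 8 of the 22 (36.4%) all knockout arrays lay above all wild type arrays, against 9.26% of all genes tested, and at 1 (4.55%) all lay below, against 9.97%. The 8 were Apc, Gsk3a, Gsk3b, Csnk1a1, Csnk1g1, Csnk1g3, Fbxw11 and Tnks. This list was singled out, and the 8 genes named, after the values were seen. Such shares were not particular to it. All knockout arrays were higher at 2 of 4 genes for Wnt release and agonists (50%). All were lower at 3 of 9 secreted antagonists (33.3%), while 0 of 10 Wnt ligand genes did either. Gsk3a, the kinase gene paralogous to Gsk3b, read 10.18, 10.08 and 10.10 in wild type and 10.43, 10.69 and 10.27 in knockout cells. Gsk3b read 9.41, 9.48 and 9.55 in wild type and 9.73, 9.99 and 9.69 in knockout cells. Both missed the threshold also with the replicate block (limma adjusted p = 0.0689 and 0.10).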
